A study of Mus musculus with 11 samples.

Results

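Transcripts of 8 mevalonate pathway enzymes were followed in hepatocyte RNA-seq from mice with and without hepatocyte Xbp1, kept on chow or given a diet high in fat and sugar (HFS). The 8 genes are Acat2, Hmgcs1, Mvk, Pmvk, Mvd, Idi1, Fdps and Ggps1, chosen by name for their step in the pathway, and they are 8 of the 54232 genes in the count files and of the 13303 that passed a filter on low counts. All 8 passed that filter. Hepatocytes were isolated from male C57BL/6 mice and purified on Percoll. Control mice carried floxed Xbp1 alleles (Xbp1fl/fl), and in Xbp1LKO mice a Cre under the albumin promoter removed exon 2 of Xbp1 in hepatocytes. The control animals thus shared the floxed alleles and differed by the Cre. Mice were adult and had either chow with plain water, or the HFS diet, an AIN-76 Western diet with fructose and glucose in the drinking water, for up to 6 weeks. There were 3 libraries of chow-fed Xbp1fl/fl, 2 of chow-fed Xbp1LKO, 3 of HFS-fed Xbp1fl/fl and 3 of HFS-fed Xbp1LKO hepatocytes. The chow-fed Xbp1LKO group is smaller here than the study describes, and replicate 2 of it carries another number in its file name than in its title. A chow library held 1 mouse and an HFS library a pool of 2 mice, so pooling and diet cannot be told apart.

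The mevalonate pathway builds isoprenoid units from acetyl-CoA. Its first enzymes condense acetyl-CoA, the kinases and the decarboxylase turn mevalonate into isopentenyl diphosphate, and prenyl transferases join these units into farnesyl and geranylgeranyl diphosphate, which feed sterols, dolichol, ubiquinone and the lipid anchors of small GTPases. In liver, transcription of most of these genes is driven by SREBP-2, a membrane-bound factor that is released when sterols in the endoplasmic reticulum run low and held back when they are plentiful.

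Total counts were 19515273 to 21917294 in chow-fed Xbp1fl/fl, 19191032 and 21572701 in chow-fed Xbp1LKO, 21501344 to 22573249 in HFS-fed Xbp1fl/fl and 23232834 to 23888401 in HFS-fed Xbp1LKO libraries. Levels are CPM, library-size scaled counts with TMM normalization, and differences are log2 fold changes with their standard error (SE). Tests are edgeR's quasi-likelihood F tests, with p adjusted by the Benjamini-Hochberg method over all 13303 genes and called under 0.05. Xbp1 had 194 to 221 CPM in chow-fed Xbp1fl/fl against 95.7 and 128 CPM in chow-fed Xbp1LKO libraries, and 242 to 301 CPM against 97.3 to 135 CPM on the HFS diet, so each Xbp1LKO library was below each control. Hepatocyte markers, of which 9 were measured, summed to between 114121 and 167267 CPM in Xbp1fl/fl and between 40336 and 85605 CPM in Xbp1LKO libraries, with no overlap between the genotypes. Macrophage, endothelial, stellate and cholangiocyte lists of 10 genes each reached at most 90.7, 145, 61.4 and 41.4 CPM, and 0 to 5 markers of a list were at 0 in a library. One chow-fed Xbp1fl/fl library, replicate 1, stood apart, with 78.4 CPM of macrophage markers where replicates 2 and 3 had 17.7 and 18.9, and values without it are given where the call of a member depended on it.

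Upstream sequences of 6 members are shown, of which 5 fell together with diet and the other, Ggps1, did not pass the test. They come from RefSeq on GRCm38.p6, read 5′ to 3′ toward the transcription start, and capitals mark CCAAT boxes (CCAAT or ATTGG, the letters bound by NF-Y) and, in Hmgcs1, the sterol response element match TCACCCCAC. The Hmgcs1 stretch is chr13:119690101-119690350 on the plus strand.
Hmgcs1: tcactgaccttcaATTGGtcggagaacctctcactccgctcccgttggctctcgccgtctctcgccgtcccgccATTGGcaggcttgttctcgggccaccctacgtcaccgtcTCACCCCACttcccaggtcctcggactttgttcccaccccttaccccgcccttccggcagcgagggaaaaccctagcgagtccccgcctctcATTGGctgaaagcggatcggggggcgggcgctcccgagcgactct
The Mvk stretch, chr5:114444061-114444268 on the plus strand, is the whole gap to the start of Mmab.
Mvk: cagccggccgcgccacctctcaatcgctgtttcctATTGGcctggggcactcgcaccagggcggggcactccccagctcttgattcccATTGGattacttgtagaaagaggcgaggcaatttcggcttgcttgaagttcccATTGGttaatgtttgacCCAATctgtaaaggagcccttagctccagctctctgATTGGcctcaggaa
The Mvd stretch is chr8:122443423-122443672 on the minus strand.
Mvd: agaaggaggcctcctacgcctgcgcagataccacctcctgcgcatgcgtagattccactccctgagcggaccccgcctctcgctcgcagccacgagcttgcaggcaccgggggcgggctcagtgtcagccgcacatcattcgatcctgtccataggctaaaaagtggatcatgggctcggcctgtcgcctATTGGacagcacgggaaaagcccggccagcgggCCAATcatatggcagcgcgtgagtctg
The Pmvk stretch is chr3:89454291-89454540 on the plus strand, before the first of its 2 listed starts.
Pmvk: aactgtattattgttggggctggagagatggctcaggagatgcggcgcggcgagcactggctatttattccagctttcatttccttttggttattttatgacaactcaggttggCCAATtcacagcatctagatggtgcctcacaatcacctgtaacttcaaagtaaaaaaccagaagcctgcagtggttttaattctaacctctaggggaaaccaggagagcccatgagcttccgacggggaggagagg
The Ggps1 stretch, chr13:14063490-14063603 on the minus strand, lies between exons of Arid4b, which starts on the opposite strand.
Ggps1: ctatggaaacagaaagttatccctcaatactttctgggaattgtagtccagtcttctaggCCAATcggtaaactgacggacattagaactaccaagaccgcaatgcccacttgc
For Idi1 only 30 bases are shown, chr13:8885561-8885590 on the plus strand, because its GENCODE start lies upstream of its RefSeq start.
Idi1: ATTGGcgagcccgggcatggtccaaggtgc
Of the 8 members 7 had an entry, all but Fdps. Acat2, which also fell with diet, had an entry but is not printed above. Searched on both strands in the 250 bases before the start, TCACNCCAC was found in Hmgcs1 alone among the members, 137 to 129 bases before the start, and in 1.05% of 32851 promoters of all genes. CCAAT occurred 3 times in Hmgcs1, 5 times in Mvk, 2 times in Mvd, 2 times in Idi1, 3 times in Ggps1, with 1 of these in the stretch shown, and 1 time before the first Pmvk start, 0 times before the second Pmvk start and 0 times in Acat2, while 33.8% of all promoters held at least 1. The letters TGACGTGG, a match for sites of the unfolded protein response, were in 0 of the 7 members with an entry and in 0.563% of all promoters.

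Per kilobase of exon, which allows levels of different genes to be compared, Hmgcs1 was the most abundant member in chow-fed Xbp1fl/fl hepatocytes with a mean of 49.5 CPM per kilobase, followed by Pmvk (39.3), Acat2 (18.8), Mvk (12.6), Mvd (10.6), Fdps (5.67), Ggps1 (1.64) and Idi1 (0.924). In HFS-fed Xbp1LKO hepatocytes the order by mean CPM per kilobase was Hmgcs1 (12.4), Acat2 (8.57), Pmvk (5.55), Mvk (2.97), Ggps1 (1.59), Mvd (1.51), Fdps (0.486) and Idi1 (0.061). Ggps1 stood at place 7 in the first group and at place 5 in the other. Places of Acat2, Fdps and Idi1 are less certain, as 39.1%, 26.2% and 25.3% of their 50-base windows also occur in other genes. How such shared reads were counted is not known. The summed CPM of the 8 members was 309 to 596 in chow-fed Xbp1fl/fl, 193 and 221 in chow-fed Xbp1LKO, 102 to 104 in HFS-fed Xbp1fl/fl and 105 to 113 in HFS-fed Xbp1LKO libraries.

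**Figure D1:**
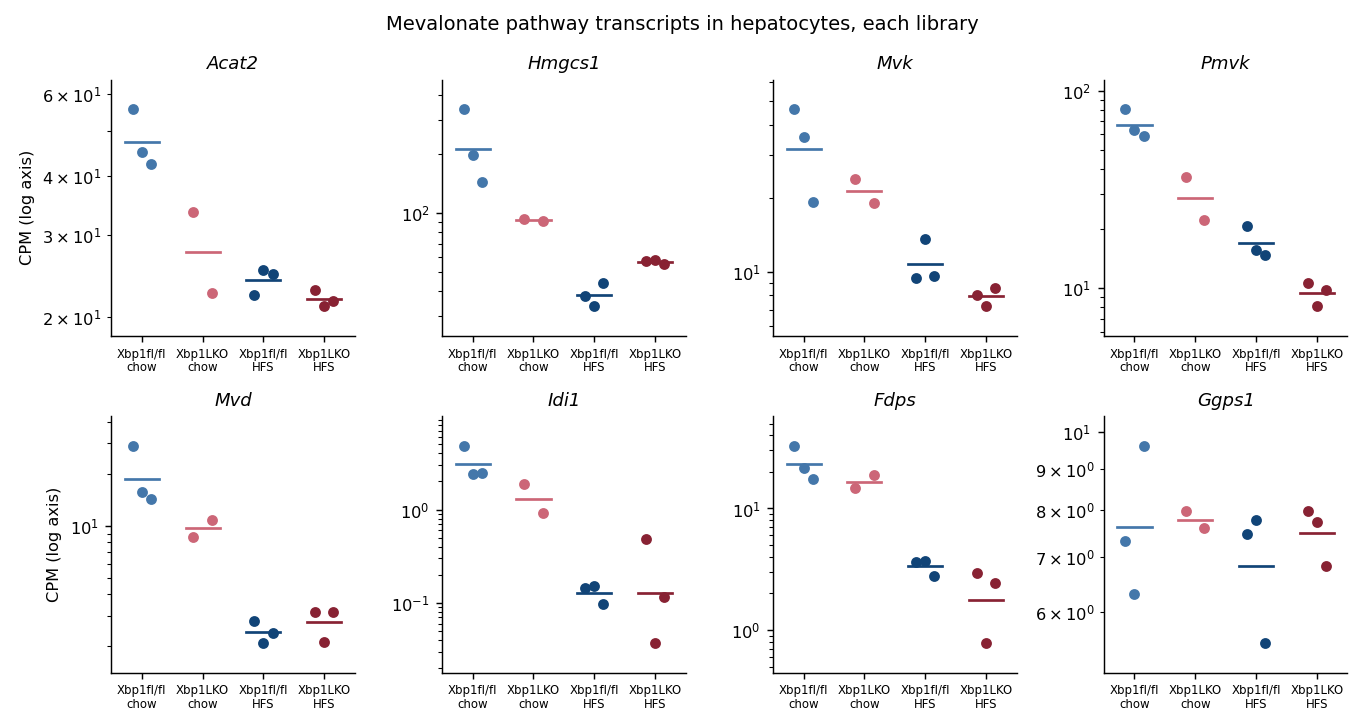
CPM of the 8 members (log axis, a separate range for each gene) in each of the 11 libraries, with a point per library and a line at the geometric mean of the group. Every HFS-fed library is below every chow-fed library of its genotype for Hmgcs1, Mvk, Pmvk, Mvd, Idi1 and Fdps, while the Ggps1 points lie between 5.49 and 9.61 CPM in all groups.

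The HFS diet went with lower transcripts of 7 of the 8 members. Averaged over genotypes, Acat2, Hmgcs1, Mvk, Pmvk, Mvd, Idi1 and Fdps fell, where 0.481% of all tested genes were called lower, and Ggps1 alone did not pass the test. The median log2 fold change over the 8 members was -1.72, against -0.0032 over all tested genes. Ranked by p among the 13303 genes, Pmvk was at place 1, Mvd at 2, Fdps at 3, Hmgcs1 at 9, Mvk at 17, Idi1 at 19, Acat2 at 50 and Ggps1 at 7738. Within Xbp1fl/fl mice 7 members fell, where 0.293% of genes were called lower. In Xbp1LKO mice 2 fell, Pmvk and Fdps, and these were the 2 genes called lower in the whole table, which is 0.015% of it. DESeq2 called 5 of the 8 lower in Xbp1LKO mice, adding Mvk, Mvd and Idi1, where it called 0.44% of all genes lower. Every HFS-fed library was below every chow-fed one for 7 members in Xbp1fl/fl, as for 7.34% of genes, and for 6 members in Xbp1LKO, as for 14.4% of genes. The 2 diet comparisons use different libraries, and the chow-fed Xbp1LKO group has 2.

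Hmgcs1 (ENSMUSG00000093930, chr13:119690379-119708260, plus strand), the cytosolic synthase that joins acetoacetyl-CoA and acetyl-CoA into HMG-CoA, had 339, 199 and 145 CPM in chow-fed Xbp1fl/fl libraries and 37.8, 33.6 and 44.3 CPM in HFS-fed Xbp1fl/fl libraries. In Xbp1LKO it had 93.3 and 91.4 CPM on chow and 57.3, 58.1 and 55.1 CPM on the HFS diet. The groups did not overlap in either genotype. In Xbp1fl/fl the fall was 5.90-fold (log2 fold change -2.56, SE 0.26, adjusted p = 0.0033). In Xbp1LKO the log2 fold change was -0.70 (SE 0.27, adjusted p = 0.31) and did not pass the test.

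Acat2 (ENSMUSG00000023832, chr17:12942890-12960747, minus strand), the cytosolic thiolase that forms acetoacetyl-CoA, had 55.7, 45.1 and 42.6 CPM in chow-fed and 22.2, 25.1 and 24.7 CPM in HFS-fed Xbp1fl/fl libraries. The 2 chow-fed Xbp1LKO libraries had 33.5 and 22.5 CPM, and the HFS-fed ones 22.8, 21.05 and 21.6 CPM. The diet groups were apart in Xbp1fl/fl, with a fall of 1.99-fold (log2 fold change -0.99, SE 0.15, adjusted p = 0.019), and overlapped in Xbp1LKO (-0.36, SE 0.16, adjusted p = 0.39). Acat2 was the smallest of the 7 falls. Its call in Xbp1fl/fl was lost in 5 of 19 alternatives, with an adjusted p of up to 0.11 by edgeR. One of these was the fit without chow-fed Xbp1fl/fl replicate 1 (log2 fold change -0.87, adjusted p = 0.054 by edgeR).

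Mvk (ENSMUSG00000041939, chr5:114444269-114460591, plus strand), the kinase that phosphorylates mevalonate, had 46.3, 35.8 and 19.2 CPM in chow-fed and 9.43, 13.6 and 9.65 CPM in HFS-fed Xbp1fl/fl libraries. Xbp1LKO libraries had 23.9 and 19.2 CPM on chow and 8.07, 7.21 and 8.59 CPM on the HFS diet. Both genotypes were lower on the HFS diet in every library, by a log2 fold change of -1.63 (SE 0.27, adjusted p = 0.032) in Xbp1fl/fl and of -1.44 (SE 0.29, adjusted p = 0.15) in Xbp1LKO. The Xbp1fl/fl call is close to the threshold and was lost in 8 of 19 alternatives, with an adjusted p of up to 0.17 by edgeR. One of these was the fit without chow-fed Xbp1fl/fl replicate 1 (adjusted p = 0.078 by edgeR).

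Pmvk (ENSMUSG00000027952, chr3:89454541-89469013, plus strand), which adds the second phosphate, had 80.4, 62.9 and 58.8 CPM in chow-fed and 20.8, 15.6 and 14.7 CPM in HFS-fed Xbp1fl/fl libraries. In Xbp1LKO it had 36.5 and 22.2 CPM on chow and 10.6, 8.11 and 9.81 CPM on the HFS diet. The 4 groups were in the order chow-fed Xbp1fl/fl, chow-fed Xbp1LKO, HFS-fed Xbp1fl/fl and HFS-fed Xbp1LKO, with no overlap between neighbours. It fell 3.95-fold in Xbp1fl/fl (log2 fold change -1.98, SE 0.21, adjusted p = 0.0033) and 3.09-fold in Xbp1LKO (-1.63, SE 0.22, adjusted p = 0.029).

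Mvd (ENSMUSG00000006517, chr8:122433601-122443422, minus strand), the decarboxylase that yields isopentenyl diphosphate, had 29.0, 15.7 and 14.2 CPM in chow-fed and 2.81, 2.09 and 2.40 CPM in HFS-fed Xbp1fl/fl libraries, a fall of 8.04-fold (log2 fold change -3.01, SE 0.29, adjusted p = 0.0033). Chow-fed Xbp1LKO libraries had 8.62 and 10.8 CPM and HFS-fed ones 3.18, 2.12 and 3.14 CPM. That difference, -1.79 (SE 0.30), had no overlap between groups and an adjusted p of 0.084 by edgeR's quasi-likelihood test. It ranked first of all genes by p in Xbp1fl/fl and at place 13 in Xbp1LKO.

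Idi1 (ENSMUSG00000058258, chr13:8885501-8892451, plus strand), the isomerase between isopentenyl and dimethylallyl diphosphate, was the least abundant member, so its raw counts are given. Chow-fed Xbp1fl/fl libraries had 87, 42 and 50 counts and HFS-fed Xbp1fl/fl libraries 3, 3 and 2. Xbp1LKO libraries had 44 and 21 counts on chow and 12, 1 and 3 on the HFS diet. Per normalized library size, the summed counts of Xbp1fl/fl were 24.6 times higher on chow than on the HFS diet, with a 95% interval of 12.2 to 57.9 from counting error alone, and those of Xbp1LKO 6.80 times higher (3.89 to 12.6). The fitted log2 fold change of -4.57 in Xbp1fl/fl (SE 0.69, adjusted p = 0.019) depends on the prior count of the fit. Its call was lost in 5 of 19 alternatives, with an adjusted p of up to 0.13 by edgeR. One of these was the fit without chow-fed Xbp1fl/fl replicate 1 (adjusted p = 0.053 by edgeR). All chow-fed libraries were above all HFS-fed libraries, although 1 HFS-fed Xbp1LKO library, replicate 1, held 12 of that group's 16 counts.

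Fdps (ENSMUSG00000059743, chr3:89093588-89101959, minus strand), the farnesyl diphosphate synthase at the branch to sterols, had 32.7, 21.4 and 17.6 CPM in chow-fed and 3.62, 3.72 and 2.79 CPM in HFS-fed Xbp1fl/fl libraries. Xbp1LKO libraries had 14.8 and 18.7 CPM on chow and 2.93, 0.78 and 2.42 CPM on the HFS diet. The falls were of like size, 7.06-fold in Xbp1fl/fl (log2 fold change -2.82, SE 0.37, adjusted p = 0.01) and 8.23-fold in Xbp1LKO (-3.04, SE 0.40, adjusted p = 0.026). Without the lowest library, HFS-fed Xbp1LKO replicate 2, the value in Xbp1LKO was -2.64 by edgeR's quasi-likelihood test.

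Ggps1 (ENSMUSG00000021302, chr13:14050659-14063488, minus strand), which makes geranylgeranyl diphosphate for protein prenylation, had 7.34, 6.30 and 9.61 CPM in chow-fed and 7.48, 7.79 and 5.49 CPM in HFS-fed Xbp1fl/fl libraries. Xbp1LKO libraries had 7.98 and 7.60 CPM on chow and 7.98, 7.73 and 6.82 CPM on the HFS diet. The groups overlapped in every comparison. Averaged over genotypes its log2 fold change with diet was -0.11, with a 95% confidence interval of -0.42 to 0.20 (adjusted p = 0.78). That interval does not reach the smallest of the other 7 fitted values, the -0.68 of Acat2.

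**Figure D2:**
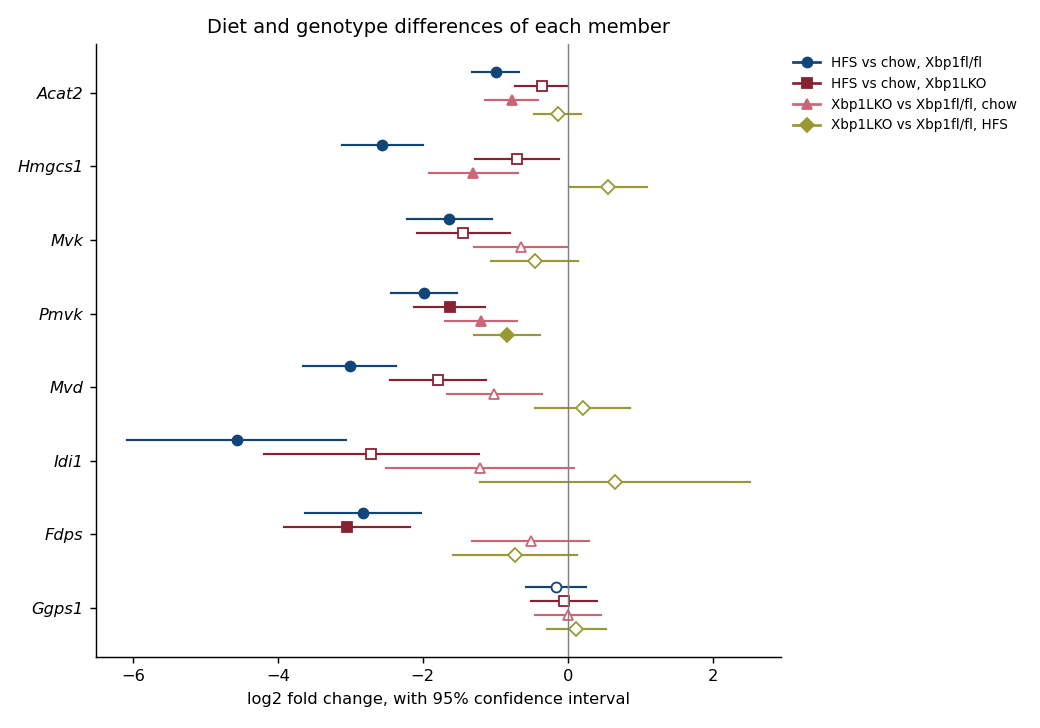
Log2 fold change of each member (x axis) with its 95% confidence interval in 4 comparisons, filled where the adjusted p was under 0.05. The diet values of Xbp1fl/fl (circles) run from -4.57 for Idi1 to -0.17 for Ggps1, and the genotype values on the HFS diet (diamonds) lie on both sides of 0.

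The diet averages were the steadiest of these results. All 7 calls held under the other normalizations, filters and tool and with the replicate blocks, and with any 1 library left out, except that Acat2 missed the threshold without HFS-fed Xbp1LKO replicate 2 (log2 fold change -0.66, adjusted p = 0.058). Within Xbp1fl/fl mice the count fell from 7 to 4 without chow-fed replicate 1 or 2 or HFS-fed replicate 1 or 2, and to 3 without HFS-fed replicate 3, and Hmgcs1, Pmvk and Mvd were called each time. Within Xbp1LKO mice the count of 2 became 0 without chow-fed Xbp1fl/fl replicate 2, HFS-fed Xbp1fl/fl replicate 2 or 3 or HFS-fed Xbp1LKO replicate 1 or 3, 1 without either chow-fed Xbp1LKO library or HFS-fed Xbp1LKO replicate 2, and 3 without chow-fed Xbp1fl/fl replicate 1 or 3. In those fits Pmvk stayed between -1.93 and -1.23 and Fdps between -3.39 and -2.64. Markers of other cells moved with diet too. All 10 endothelial markers had a positive diet average, with a median of 1.10, and 1 was called higher by edgeR, where 0.616% of genes were, and 10 by DESeq2, where 2.38% were. Their sum was 27.7 to 107 CPM on chow and 69.9 to 145 CPM on the HFS diet. All 8 stellate markers tested were positive as well, with a median of 1.41, and 2 were called higher by edgeR and 5 by DESeq2. The stellate sum was 8.96 to 41.5 CPM on chow and 23.1 to 61.4 CPM on the HFS diet. The 10 macrophage markers were positive with a median of 0.54, and 0 were called by edgeR or DESeq2. In edgeR 4 had an unadjusted p under 0.05, as did 1968 of all 13303 genes. Of the 9 hepatocyte markers 0 were called with diet by either tool, 0 had an unadjusted p under 0.05, and their median was -0.07. In Xbp1fl/fl mice the endothelial, stellate and macrophage medians with diet were 0.80, 0.49 and 0.02, with 5 macrophage markers negative. In Xbp1LKO mice they were 1.52, 2.27 and 1.31, with all values positive. By edgeR 0 of these were called in either genotype. DESeq2 called 0 in Xbp1fl/fl, and 9 endothelial and 5 stellate markers higher in Xbp1LKO, where it called 150 of 13647 genes higher. The part of all these markers in the result was not tested. In these bulk libraries, fewer cells that express a gene and less RNA per cell cannot be told apart.

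**Figure D3:**
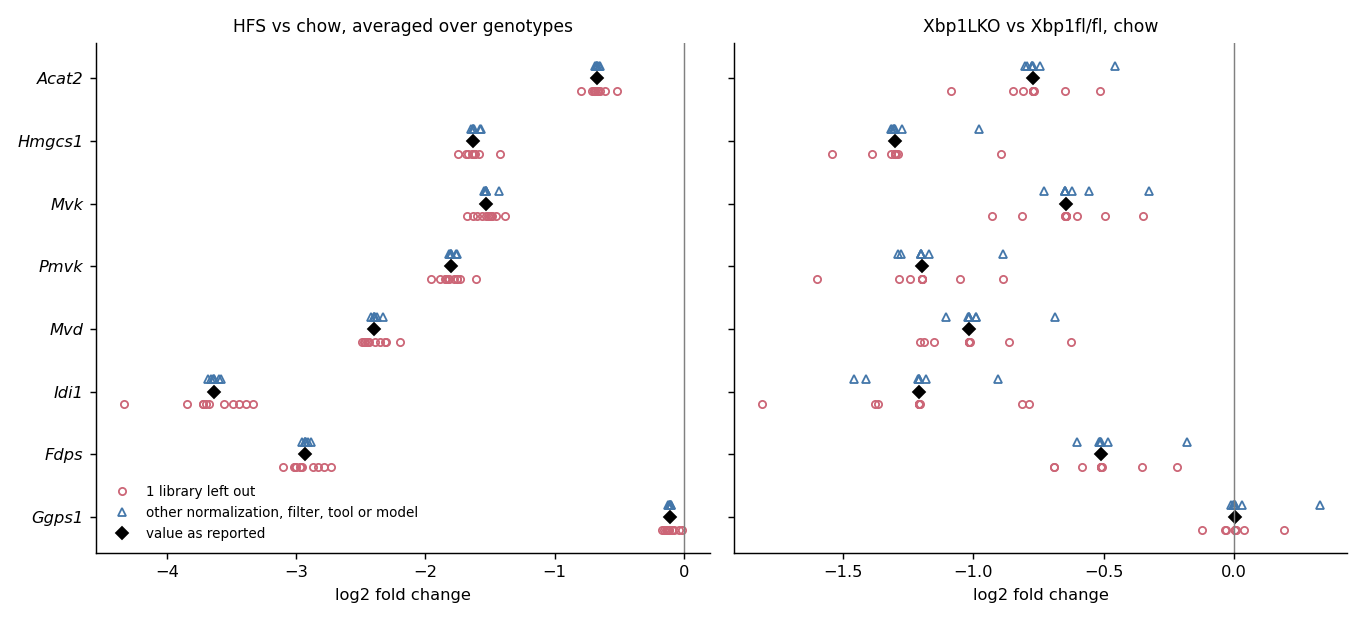
Log2 fold change of each member (x axis) as reported (diamonds), under other normalizations, filters, tools and models (triangles) and with each library left out in turn (circles). The diet averages on the left stay at or below -0.52 for all members except Ggps1, and the genotype values on chow on the right spread more widely.

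Loss of Xbp1 went with lower transcripts of 3 members in chow-fed mice, Acat2, Hmgcs1 and Pmvk, where 3.02% of genes were called lower. The log2 fold changes were -0.77 for Acat2 (SE 0.17, adjusted p = 0.025), -1.30 for Hmgcs1 (SE 0.28, adjusted p = 0.024) and -1.20 for Pmvk (SE 0.23, adjusted p = 0.014). Mvd had -1.02 (SE 0.30, adjusted p = 0.079) and Idi1 -1.21 (SE 0.59, adjusted p = 0.29), and Mvk and Fdps had -0.65 and -0.51. In 5 members, Acat2, Hmgcs1, Pmvk, Mvd and Idi1, both Xbp1LKO libraries were below all 3 controls, as in 15.9% of all tested genes. The median over the 8 members was -0.89, against 0.0024 over all genes. This comparison uses the same chow-fed Xbp1fl/fl libraries as the diet comparison of that genotype. Without chow-fed Xbp1fl/fl replicate 1, the highest of its group in 7 members, Hmgcs1 had -0.89 (adjusted p = 0.019), Pmvk -1.05 (adjusted p = 0.035) and Acat2 -0.65 (adjusted p = 0.063) by edgeR's quasi-likelihood test. Acat2 was not called without control replicate 2 (adjusted p = 0.052 by edgeR), nor Hmgcs1 without chow-fed Xbp1LKO replicate 1 (adjusted p = 0.078 by edgeR), and 5 members were called without control replicate 3. Without chow-fed Xbp1LKO replicate 2, or with only the 2 groups in the fit, 0 members were called by edgeR, with 4 and 5 members at an unadjusted p under 0.05, and DESeq2 on all libraries called 4, where it called 5.12% of genes lower. The fit without chow-fed Xbp1LKO replicate 2 leaves 1 library in that group, and calls over the whole table dropped in it as well. With library totals in place of TMM factors Acat2 was not called (log2 fold change -0.46, adjusted p = 0.053 by edgeR), and Hmgcs1 and Pmvk were.

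The chow-fed genotype groups also differed in what share of counts a few liver transcripts took. The Alb transcript held 8.06% to 10.9% of counts in chow-fed Xbp1fl/fl and 1.67% and 3.72% in chow-fed Xbp1LKO libraries. With library totals in place of TMM factors the median of all genes shifted by 0.33 on chow and by 0.27 on the HFS diet, and the share of called genes that were higher in Xbp1LKO went from 36.4% to 89.5% on chow and from 47.1% to 86.9% on the HFS diet. Relative to those medians, Acat2, Hmgcs1 and Pmvk had -0.79, -1.31 and -1.22 on chow. On chow the 9 hepatocyte markers were all negative by genotype, with a median of -0.66. By edgeR 2 were called lower, where 3.02% of all genes were. They summed to 40336 and 69293 CPM in Xbp1LKO against 136783 to 167267 CPM in Xbp1fl/fl libraries. Markers of other cells had negative values too, with medians of -1.29 over 10 endothelial, -1.24 over 8 stellate and -0.52 over 10 macrophage markers, and each of these values was below 0. By edgeR 0 of them were called, with 9, 4 and 0 at an unadjusted p under 0.05, as were 2561 of all 13303 genes. DESeq2 called 7, 2 and 0 lower, where it called 5.12% of all genes lower. The endothelial sum was 27.7 and 35.6 CPM in chow-fed Xbp1LKO against 45.7 to 107 CPM in control libraries. The part of these markers in the result was not tested.

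On the HFS diet, Pmvk was the one member that fell in Xbp1LKO hepatocytes, where 2.16% of genes were called lower. Its log2 fold change was -0.84 (SE 0.21, adjusted p = 0.047), and the adjusted p ranged from 4.6e-06 to 0.18 over the alternatives. It missed the threshold without any 1 of the 6 HFS-fed libraries, without chow-fed Xbp1fl/fl replicate 2 and with library totals. Mvk had all 3 Xbp1LKO libraries below the controls as well (-0.45, SE 0.27, adjusted p = 0.45), so 2 members did not overlap in this direction, as in 12.5% of genes. Hmgcs1 went the other way, with all 3 Xbp1LKO libraries above the controls, as in 13.6% of genes (log2 fold change 0.56, SE 0.24, adjusted p = 0.26). It was called higher by edgeR with no filter on low counts (adjusted p = 0.0083) and with only the HFS-fed groups in the fit (adjusted p = 0.023), and its adjusted p ranged from 0.0083 to 0.49 over the alternatives. Mvd and Idi1 had 0.21 (SE 0.30) and 0.65 (SE 0.85), Fdps -0.73 (SE 0.39), Acat2 -0.14 (SE 0.15) and Ggps1 0.12 (SE 0.19), all overlapping. The median over the members was -0.01, against 0.0083 over all genes. The hepatocyte markers summed to 54452 to 85605 CPM in Xbp1LKO against 114121 to 127777 CPM in control libraries on this diet.

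Averaged over diets, 2 members were lower in Xbp1LKO hepatocytes, where 6.64% of genes were called lower. Pmvk fell 2.03-fold (log2 fold change -1.02, SE 0.15, adjusted p = 0.0015) and Acat2 1.37-fold (-0.46, SE 0.11, adjusted p = 0.021). Pmvk was past the threshold in each alternative run for this average and with any library left out. Acat2 missed it with library totals (adjusted p = 0.2), without chow-fed Xbp1LKO replicate 2 (adjusted p = 0.092) and without HFS-fed Xbp1LKO replicate 2 (adjusted p = 0.054), all by edgeR. Of the 9 hepatocyte markers 5 were called lower in this average, with a median of -0.78, and of the 10 endothelial markers 3, with a median of -0.88, and their part in the result was not tested.

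Whether diet and genotype acted together was tested by the interaction, the genotype difference on the HFS diet minus that on chow. By edgeR, 0 of the 8 members and 0 of all 13303 genes passed the threshold, with 3 members and 816 genes at an unadjusted p under 0.05. The 3 were Hmgcs1, Acat2 and Mvd. Hmgcs1 had an interaction of 1.86 (SE 0.37, adjusted p = 0.6), at place 6 of all genes by p, Mvd 1.22 (SE 0.42, adjusted p = 0.72) and Acat2 0.63 (SE 0.22, adjusted p = 0.72). DESeq2 called 31 genes and among them 1 member, Hmgcs1 (adjusted p = 0.0021), and edgeR with no filter on low counts called Hmgcs1 and Mvd, both positive. Of the 8 values, 7 were positive, and Fdps had -0.22 (SE 0.53). The median was 0.49, against 0.0093 over all genes. Other lists were mostly positive too, with 10 of 10 macrophage, 10 of 10 endothelial and 8 of 8 stellate markers (medians 1.27, 0.72 and 1.78). So were 11 of 12 enzymes from farnesyl diphosphate to cholesterol, but only 4 of 9 hepatocyte markers and 6 of 17 isoprenoid users. The part of the markers was not tested. The members' interaction values rest on the chow-fed Xbp1fl/fl libraries, and that of Hmgcs1 was 1.45 (adjusted p = 0.2 by edgeR) without replicate 1 of that group.

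Enzymes downstream of the farnesyl branch and users of isoprenoids were counted as separate lists. Of 12 sterol branch enzymes, which carry farnesyl diphosphate by way of squalene to cholesterol, 9 fell with diet averaged over genotypes. This was so for 0.481% of all genes, and the median log2 fold change of the 12 was -1.29. Sqle, the squalene epoxidase, had -3.75 (SE 0.36, adjusted p = 0.0011), Cyp51, the lanosterol demethylase, -2.66 (SE 0.27, adjusted p = 0.0015) and Msmo1, the sterol methyl oxidase, -2.23 (SE 0.21, adjusted p = 0.001). Of 17 genes that use isoprenoids for prenylation, dolichol or ubiquinone, 0 were called with diet by edgeR or by DESeq2, 0 had an unadjusted p under 0.05, and the median was -0.023. The smallest p among them was that of Chml, a Rab escort protein, at -0.37 (SE 0.20, adjusted p = 0.42). By genotype, averaged over diets, 7 sterol branch genes fell, where 6.64% of all genes did, with Sc5d at -0.58 (SE 0.12, adjusted p = 0.0082), Dhcr7 at -1.29 (SE 0.27, adjusted p = 0.0099) and Lss at -0.76 (SE 0.16, adjusted p = 0.01). Among the 17 isoprenoid users, 1 fell by genotype, a share near that of all genes. It was Dhdds, a subunit of the dolichol-forming cis-prenyltransferase (-0.53, SE 0.09, adjusted p = 0.0023).

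Upstream supply and sterol regulators were read from lists of the same kind. Of 7 genes for acetyl-CoA and NADPH supply, 1 fell with diet, Acss2, the acetyl-CoA synthetase of the cytosol (-0.89, SE 0.16, adjusted p = 0.027), where 0.481% of all genes fell. By genotype 3 fell, Acss2, Acly and Slc25a1, where 6.64% of all genes did. Of 13 genes of the SREBP machinery, 1 rose with diet, where 0.616% of genes were called higher, and this was Srebf1, the gene of SREBP-1 (1.52, SE 0.32, adjusted p = 0.049). Srebf2, the gene of SREBP-2, had -0.76 (SE 0.17, adjusted p = 0.057) and Insig1, which holds SREBPs back in sterol-rich membranes, -0.83 (SE 0.19, adjusted p = 0.062). By genotype 5 of the 13 fell, against the same 6.64% of all genes, among them Insig1 (-0.93, SE 0.19, adjusted p = 0.009).

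Some genes for cholesterol removal rose with diet. Of 12 genes under LXR or in sterol efflux and bile acid synthesis, 4 rose averaged over genotypes, where 0.616% of all genes did, with Abca1 at 0.85 (SE 0.13, adjusted p = 0.013), Abcg1 at 1.96 (SE 0.33, adjusted p = 0.019) and Abcg5 at 1.12 (SE 0.19, adjusted p = 0.02), all sterol exporters. The median of the 12 was 0.28. Of 10 fatty acid synthesis genes under SREBP-1c, 1 rose with diet, Scd1, the stearoyl-CoA desaturase (1.87, SE 0.35, adjusted p = 0.033), and 7 fell by genotype, against 6.64% of all genes, where Scd1 had -2.49 (SE 0.37, adjusted p = 0.0014).

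**Figure D4:**
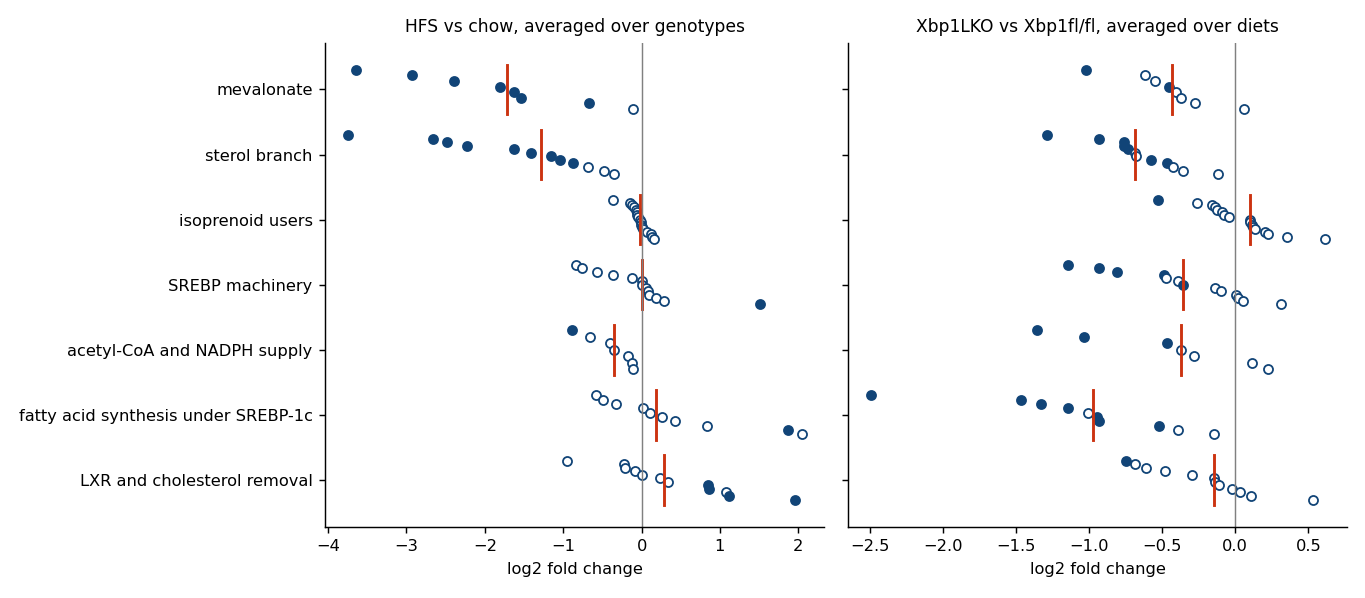
Log2 fold change (x axis) of each measured gene in 7 lists, for diet averaged over genotypes (left) and genotype averaged over diets (right), with filled points at an adjusted p under 0.05 and a red line at the median. The mevalonate and sterol branch medians lie at -1.72 and -1.29 on the left, and the isoprenoid users at -0.023.

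By Pearson correlation of log2 CPM over the 11 libraries with the mean of the members' standardized values, the 10 most similar of 11122 other genes were Cyp51, Msmo1, Nsdhl, Sqle, Rdh11, Erg28, Hsd17b7, Capn10, Aldoc and Lss, with r from 0.983 to 0.927. The libraries share their diet groups, so the points fall into a chow and an HFS cluster. Genes picked in this way tend to fall with diet because of how they were picked. Their diet values below describe them and are no separate test. Of the 10, 6 are enzymes of the sterol branch. Outside that list, Rdh11, a retinol dehydrogenase, had a diet average of -1.54 (adjusted p = 0.0029), Aldoc, a brain-type aldolase, -1.76 (adjusted p = 0.012), Erg28, a scaffold of sterol demethylation, -0.70 (adjusted p = 0.008) and Capn10, a calpain protease, -0.60 (adjusted p = 0.015), all by edgeR's quasi-likelihood test.

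**Figure D5:**
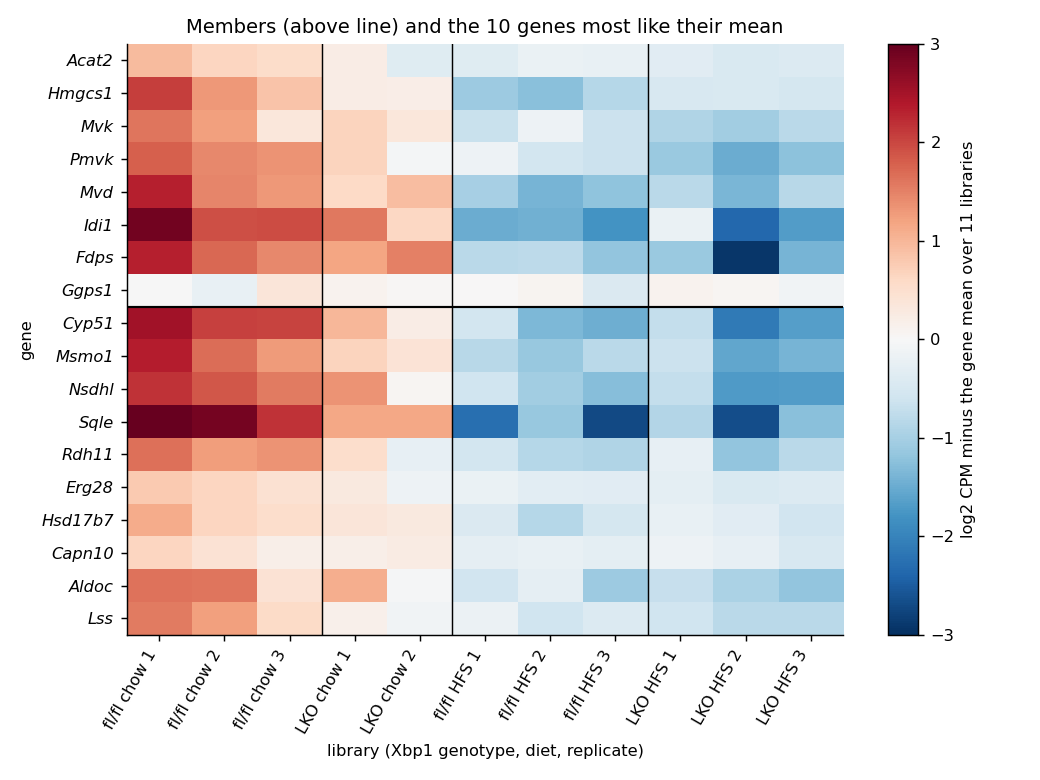
Log2 CPM of the 8 members and of the 10 genes most like their mean, each minus the gene's mean over 11 libraries (colour scale, ending at -3 and 3), by library. Chow-fed libraries are mostly red and HFS-fed libraries mostly blue, Ggps1 stays near white, and chow-fed Xbp1fl/fl replicate 1 has the deepest red of its group in 7 of the 8 members.

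Mvk and Mmab, an enzyme of cobalamin metabolism, start 209 bases apart on opposite strands, across the stretch with 5 CCAAT boxes printed above. Mmab had 53.4, 42.2 and 27.98 CPM in chow-fed and 20.9, 20.6 and 21.9 CPM in HFS-fed Xbp1fl/fl libraries, and 31.7 and 31.5 CPM against 18.8, 17.9 and 18.3 CPM in Xbp1LKO. Every HFS-fed library was below every chow-fed one. Mmab fell with diet by a log2 fold change of -0.87 averaged over genotypes (SE 0.13, adjusted p = 0.012), a smaller value than the -1.53 of Mvk (SE 0.20), and its r with the members' mean was 0.919, at place 13. Ggps1 overlaps Arid4b, a chromatin protein gene on the opposite strand, by 257 bases, and Arid4b had a diet average of -0.04 (SE 0.14, adjusted p = 0.93).

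Of the related enzymes named here, Acat1 and Acat3 did not pass the test with diet, and Idi2 had too few counts to be tested. Averaged over genotypes, Acat1, the mitochondrial thiolase, had a log2 fold change with diet of 0.22 (SE 0.14, adjusted p = 0.49), and Acat3, a close copy of Acat2, 0.08 (SE 0.12, adjusted p = 0.82). Neither was called in any comparison by edgeR or by DESeq2. Idi2 held 1 count over all libraries. Of the 50-base windows of the Acat2 transcripts 39.1% are also in Acat3, so the split of reads between the pair is uncertain. For Fdps 26.2% and for Idi1 25.3% of windows occur in another gene, mainly in a readthrough transcript, pseudogenes or an overlapping antisense gene. Of these, Gm43738, which shares exons with Fdps, had 0 counts in all libraries.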

How the data were processed

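Hepatocyte RNA of 11 mouse libraries was sequenced. The authors deposited a whole-number count per Ensembl gene for each library, not normalized. The paper names kallisto and tximport for these counts, while the submitters' processing notes name cutadapt 1.13, STAR, HTSeq 0.6.1p1 and mm10, so the handling of reads shared between genes is uncertain; the annotation version is not given in the sources used here. The paper names a stranded mRNA kit and the labels a total RNA kit. Of 54232 identifiers, 54079 were found in GENCODE M21 (GRCm38), which gave symbols, positions and exon lengths.

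Counts were scaled by TMM and analysed with edgeR 4.0.16 (R 4.3.3). Genes were kept by filterByExpr at a minimum count of 10, and 1 quasi-likelihood fit with a term per group covered the 11 libraries, with Benjamini-Hochberg adjustment over 13303 genes. Log2 CPM used a prior count of 2. DESeq2 1.42.0, the tool of the paper, was an alternative, as were RLE factors, library totals, no filter on low counts, 1 CPM in 2 libraries, only the groups compared, replicate blocks and each library left out. The code was tested on simulated data. Counting intervals cover counting error only. P-values measure the spread between libraries, of 1 mouse each on chow and of pools of 2 mice on the HFS diet.

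Members, lists and tests were chosen with earlier results of these data known. Besides the members, the text names the 3 genes of each list with the smallest unadjusted p by diet and by genotype, the 10 genes most like the members' mean with at least 1 CPM on average, genes that overlap a member or start within 1000 bases of one, and paralogs, of which 1 is not reported here.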

Additional observations from a re-analysis of the deposited data

Results flagged for a closer look

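Hmgcs1 was singled out because its genotype difference had opposite directions on the 2 diets. On chow both Xbp1LKO libraries were below all Xbp1fl/fl libraries, and on the HFS diet all 3 Xbp1LKO libraries were above all Xbp1fl/fl libraries. The difference between the genotype effects was 1.86 on the log2 scale (SE 0.37), with an adjusted p of 0.6 by edgeR's quasi-likelihood test and 0.0021 by DESeq2. Over all alternatives the value lay between 1.45 and 2.10 and the adjusted p between 2.5e-10, with no filter on low counts, and 0.98. The groups hold 2 or 3 libraries each, too few for a test of single outlying libraries.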

How the results depend on the processing

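The 7 falls with diet averaged over genotypes were between 6 and 7 in number under every alternative run for that average, which a fit of 2 groups cannot give. Other counts of members called moved with the setting, and the cause was not tested. With library totals, 2 members were called by genotype on chow, 0 members were called by genotype on the HFS diet and 1 by genotype averaged over diets. Over all genes, 315, 195 and 498 were then called lower in these comparisons, against 402, 287 and 883 with TMM factors. With DESeq2, 5 were called by diet in Xbp1LKO and 1 in the interaction. With no filter on low counts, the numbers were 5 by genotype on chow, 3 by genotype on the HFS diet with Hmgcs1 higher, 6 by diet in Xbp1LKO, 2 in the interaction, both positive, and 5 by genotype averaged over diets. That setting raised calls over the whole table of 26016 genes as well. Genes called lower by diet in Xbp1LKO went from 2 to 263, and positive interactions from 0 to 161. Genes called lower by genotype went from 402 to 831 on chow, from 287 to 704 on the HFS diet and from 883 to 1199 averaged over diets. With only the groups compared in the fit, they were 0 by genotype on chow, 2 by genotype on the HFS diet, with Pmvk lower and Hmgcs1 higher, and 0 by diet in Xbp1LKO. Over all genes, those fits called 158 lower by genotype on chow, 420 lower and 389 higher by genotype on the HFS diet, and 0 by diet in Xbp1LKO. With 1 library left out in turn, counts ranged from 0 to 5 by genotype on chow, 0 to 1 by genotype on the HFS diet, 3 to 7 by diet in Xbp1fl/fl, 0 to 3 by diet in Xbp1LKO, 6 to 7 by diet averaged over genotypes and 1 to 4 by genotype averaged over diets, and stayed at 0 in the interaction.

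The log2 fold changes that changed sign were not called in either direction. Acat2 by genotype on the HFS diet was 0.12 with library totals. Ggps1 by genotype on chow was -0.012 with the replicate block by title number and -0.0043 with the block by file number. With 1 library left out, Ggps1 ranged from -0.12 to 0.19 by genotype on chow, -0.023 to 0.21 by genotype on the HFS diet, -0.29 to 0.020 by diet in Xbp1fl/fl, -0.090 to 0.013 by diet in Xbp1LKO, -0.073 to 0.24 in the interaction and -0.0093 to 0.16 by genotype averaged over diets. In the same fits Mvk ranged from -0.10 to 0.48 and Fdps from -0.57 to 0.17 in the interaction, and Idi1 from -0.75 to 1.15 by genotype on the HFS diet.

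Deviations from the group means of same-numbered libraries had correlations of -0.20 to 0.23 over 15 pairs, and those of differently numbered libraries -0.27 to 0.33. Within groups of 2 or 3 libraries such deviations are tied to each other, so these values cannot decide whether the numbers pair the libraries. The replicate block left 6 members called by diet in Xbp1fl/fl, where Mvk had an adjusted p of 0.051 in edgeR, 3 by genotype on chow, 1 by genotype on the HFS diet, 2 by diet in Xbp1LKO, 7 by diet averaged over genotypes and 2 by genotype averaged over diets. With the block by file number, 3 were called by diet in Xbp1LKO.

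Over all genes, edgeR called 632 by genotype on chow, 543 by genotype on the HFS diet, 57 by diet in Xbp1fl/fl and 8 by diet in Xbp1LKO, and DESeq2 called 1115, 987, 175 and 210. With 1 library left out of a group of 3, edgeR called 222 to 401 genes lower by genotype on chow and 100 to 352 on the HFS diet. By diet it called 6 to 34 lower in Xbp1fl/fl, 0 to 6 in Xbp1LKO and 32 to 68 averaged over genotypes. These ranges leave out the fits without a chow-fed Xbp1LKO library, in which that group is 1 library. Without replicate 2 of that group, calls by genotype on chow dropped over the whole table, as they did among the members. Idi1, at 16 counts or fewer per HFS-fed group, is limited by depth. With only the HFS-fed groups in the fit it did not pass the filter and has no value there.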
